A study of Mus musculus with 12 samples.

Results

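The dystrophin-glycoprotein complex was examined through 9 genes: Dmd, Utrn, Dag1, Sgca, Sgcb, Sgcd, Sgce, Sntb1 and Dtna. They were chosen by name, as subunits of the complex. They are 9 of 22310 gene symbols in the count files, and all 9 passed the filter on low counts, which left 13540 genes for testing. The libraries are RNA-seq of satellite cells, the resident stem cells of skeletal muscle, isolated from the hindlimbs of C57BL/6 mice 3 days after barium chloride injury. The injury was made by injecting 50 µl of a 1.2% solution at about 20 places. The 4 groups each held 3 libraries: Hoxa9 knockout and wild type animals of 22 to 28 months (old), and Hoxa9 knockout and wild type animals of 3 to 4 months (young). Every group was injured, so no library shows uninjured muscle. The labels state neither how many animals stand behind a library nor which allele the knockout carries, so the p-values measure only the spread between libraries, which may be technical.

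The complex links the cytoskeleton of a muscle cell to the basal lamina around it. Dystrophin, encoded by Dmd, binds actin inside the cell and dystroglycan, encoded by Dag1, in the membrane; dystroglycan binds laminin outside. The sarcoglycans are single-pass membrane proteins that stabilise dystroglycan, and syntrophins and dystrobrevin sit on the inner face as a signalling scaffold. Utrophin is the autosomal relative of dystrophin that can take its place. Loss of dystrophin causes Duchenne muscular dystrophy, and loss of several sarcoglycans causes limb-girdle muscular dystrophies. In activated mouse satellite cells dystrophin is also known for its part in cell polarity and asymmetric division.

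The depth was 4193433 to 20337015 gene reads per library. Hoxa9, the homeobox gene targeted in the knockout, had 4.55 to 7.21 CPM in knockout libraries and 7.96 to 22.5 CPM in wild-type ones, so reads of it remained in every knockout library. CPM is a gene's count relative to the scaled size of its library. A pair of features separated the genotypes across all genes. The rank correlation of relative level with GC content across genes was -0.525 to -0.125 in knockout libraries and 0.226 to 0.471 in wild-type libraries, and the share of reads in Lars2 was 0.484% to 25.05% in knockout and 0.0258% to 0.110% in wild type. Old knockout replicates 2 and 3 had male levels of the Y-linked gene Ddx3y (125 and 151 CPM), against 0 to 5.11 CPM elsewhere. Satellite cell markers were detected in every library, with Pax7 at 169 CPM or more.

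Young wild-type libraries held the highest levels of Sgca, Dag1 and Sgce, and no library of the other 3 groups reached them. How many of all genes show this order was not counted. Young wild type did not overlap with young knockout for 35.7% of all genes, nor with old wild type for 26.8%. Sgca, which encodes the muscle-restricted alpha-sarcoglycan, was at 40.6 to 44.0 CPM in young wild type and at 22.7 to 30.9 CPM in the other 9 libraries. Dag1 was at 2743 to 3369 CPM in young wild type and at 1792 to 2454 CPM elsewhere. Sgce, which encodes the widely expressed epsilon-sarcoglycan, was at 49.5 to 58.7 CPM in young wild type and at 34.1 to 45.0 CPM elsewhere. Dmd showed another order, with its highest levels in single knockout libraries of each age. The comparisons that follow share control libraries, so the young wild-type libraries enter both the young knockout comparison and the comparison of ages in wild type.

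**Figure D1:**
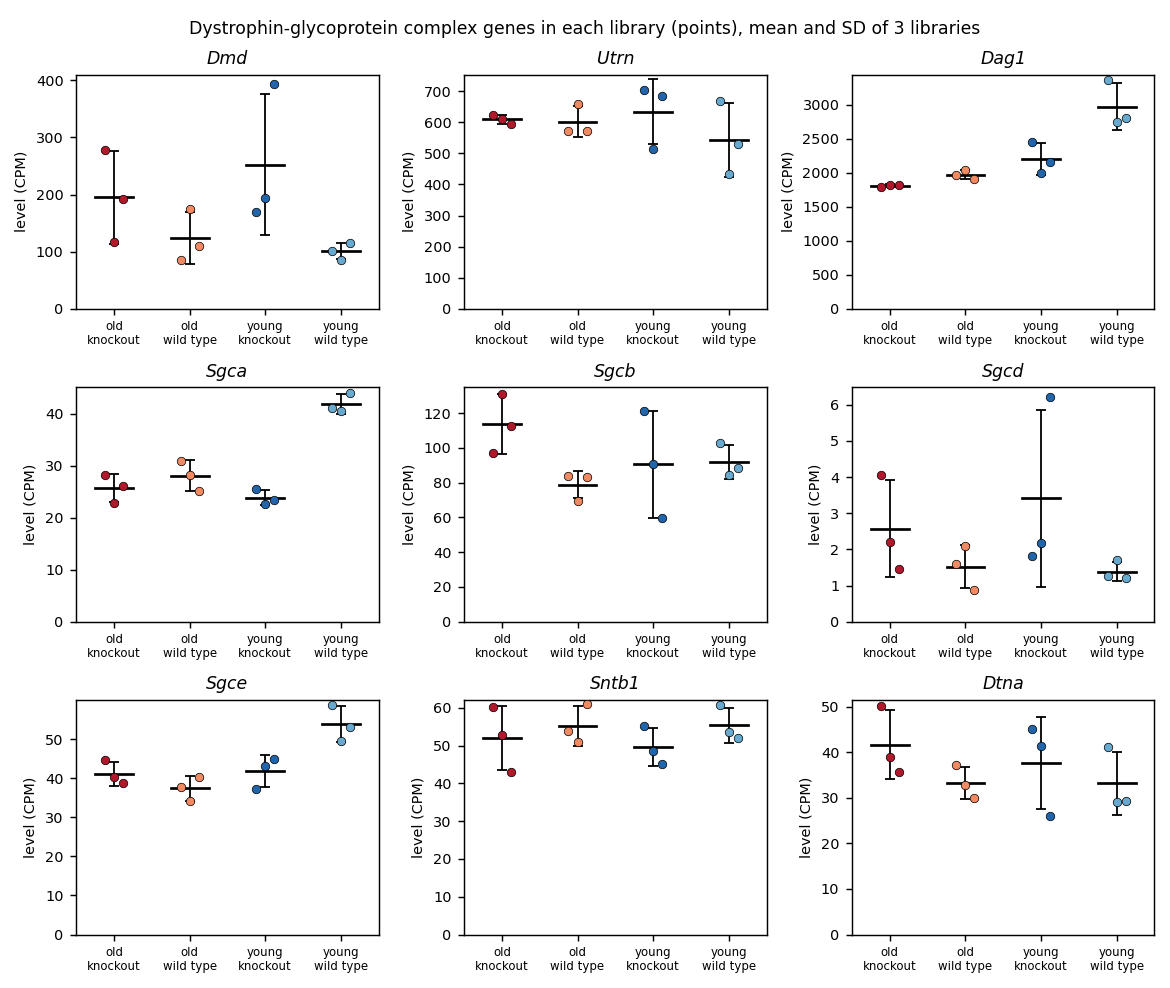
Level of each of the 9 genes in CPM (vertical axes start at 0) in old knockout, old wild type, young knockout and young wild type. Points are libraries, the thick bar is the mean and the whisker the SD of 3 libraries. Young wild type stands above every other library for Dag1, Sgca and Sgce, while the Dmd points of the knockout groups spread widely, up to 394 CPM in 1 young knockout library.

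Upstream sequence is shown for the 3 genes that passed the test in young knockout, Dmd, Dag1 and Sgca, because these promoters differ in their makeup. The windows are the 250 bases before an annotated start, from RefSeq in build GRCm38.p6. Windows were kept for 6 of the 9 genes, and absence here does not mean that a gene has no entry. Capitals mark E-boxes (CANNTG, the site form of the myogenic MyoD family), CArG boxes (the serum response factor site form) and MEF2 site forms, searched on both strands.
Dmd, muscle start, chrX:82948620-82948869, plus strand: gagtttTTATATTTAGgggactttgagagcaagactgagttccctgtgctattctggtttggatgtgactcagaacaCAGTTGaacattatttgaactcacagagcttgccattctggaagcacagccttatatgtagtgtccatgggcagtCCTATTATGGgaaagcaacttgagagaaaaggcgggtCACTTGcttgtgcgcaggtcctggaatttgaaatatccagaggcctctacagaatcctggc
Dmd, start near the 3′ end of the gene, chrX:85048045-85048294, plus strand: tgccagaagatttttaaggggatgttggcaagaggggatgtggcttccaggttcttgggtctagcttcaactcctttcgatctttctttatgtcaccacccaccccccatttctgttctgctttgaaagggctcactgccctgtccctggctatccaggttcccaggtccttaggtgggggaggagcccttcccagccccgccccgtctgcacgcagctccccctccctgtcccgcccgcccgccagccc
Dag1, chr9:108263959-108264208, minus strand: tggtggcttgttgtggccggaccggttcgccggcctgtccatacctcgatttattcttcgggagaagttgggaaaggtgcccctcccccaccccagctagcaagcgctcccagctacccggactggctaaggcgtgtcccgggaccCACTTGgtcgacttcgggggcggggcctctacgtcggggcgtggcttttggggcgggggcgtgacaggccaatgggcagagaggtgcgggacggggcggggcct
Sgca, chr11:94976328-94976577, minus strand: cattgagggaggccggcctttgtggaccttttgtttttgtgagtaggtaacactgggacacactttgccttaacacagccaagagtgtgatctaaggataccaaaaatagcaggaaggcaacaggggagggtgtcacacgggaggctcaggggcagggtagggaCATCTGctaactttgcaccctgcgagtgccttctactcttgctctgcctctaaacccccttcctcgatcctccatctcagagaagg
The muscle start of Dmd has a MEF2 form at position -244, E-boxes at -173 and -61 and a CArG box at -98, counted from the start to the first base of each match. The internal Dmd start has 0 E-boxes and 3 GC boxes (GGGCGG). The Dag1 window shown has 1 E-box at -104 and 3 GC boxes. Another annotated Dag1 start, whose window overlaps this one and is not printed, has 1 E-box at -247 and 3 GC boxes. The Sgca window has 1 E-box at -86 and 0 GC boxes. Among 32851 annotated windows of this length, 66.2% hold an E-box, 32.7% a GC box, 1.47% a CArG box and 2.92% a MEF2 form. A match describes these letters and is not a measured binding site. The count files give 1 value for Dmd, so the starts, which make a full-length and a short product, cannot be told apart in the levels.

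Levels per length differed widely within the complex. Dag1 was highest at 395.9 ± 88.1 RPKM (SD over 12 libraries), where RPKM is the CPM value per kilobase of the longest annotated transcript. Utrn followed at 48.2 ± 6.35 RPKM, and Dmd stood at 11.3 ± 6.11 RPKM. Among the sarcoglycans Sgcb was at 24.7 ± 5.45, Sgca at 17.4 ± 4.44, Sgce at 9.85 ± 1.63 and Sgcd at 0.499 ± 0.335 RPKM. Sntb1, a syntrophin, was at 10.8 ± 1.17 RPKM and Dtna, a dystrobrevin, at 5.78 ± 1.16 RPKM. The ranges over libraries of Sgcb and Sgca overlapped, and so did those of Dmd with Sgca, Sntb1 and Sgce, so these neighbours in the order were not separated. With the length of all annotated exons joined in place of the longest transcript, Dmd stood at 7.06, Sgce at 4.10 and Dtna at 2.15 RPKM, which places Dmd under Sntb1 at 9.97 RPKM. Sgcd rested on 5 to 33 reads per library, and the delta subunit was thus measured far less precisely than Dag1, with 6294 reads or more.

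**Figure D2:**
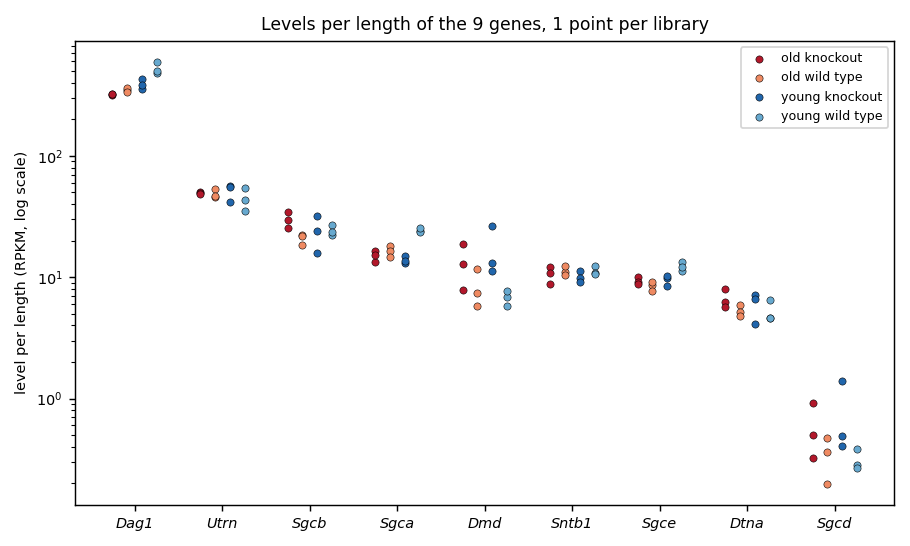
Level per length in RPKM on a log axis for each of the 9 genes, 1 point per library, with old knockout, old wild type, young knockout and young wild type side by side. Dag1 lies highest (mean 395.9 RPKM) and Sgcd lowest (mean 0.499 RPKM); Dmd and Sgcd have the widest spread, with 4.58-fold and 7.02-fold ranges over libraries.

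Young knockout against young wild type asks what loss of Hoxa9 did in young animals. Here 3 of the 9 genes passed the test, 1 higher (Dmd) and 2 lower (Dag1 and Sgca). Over all 13540 genes, edgeR's quasi-likelihood test called 20.9% at an adjusted p under 0.05, with 10.9% higher and 10% lower. The median log2 fold change of the 9 genes was -0.01, beside -0.02 over all genes. In 5 of the 9 the groups did not overlap (these 3, Sgcd and Sgce), as was the case for 35.7% of all genes tested. The count of calls over all genes was 2831 with all libraries. It was 2630, 1590 and 3140 without young knockout replicates 1, 2 and 3, and 2379, 1479 and 2015 without young wild-type replicates 1, 2 and 3.

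Sgca had 25.5, 22.7 and 23.4 CPM in young knockout, against 41.0, 40.6 and 44.0 CPM in young wild type. All 3 knockout libraries lay far below all 3 wild-type libraries, and the replicates of each genotype lay close together. The log2 fold change was -0.81 ± 0.14 (SE), 0.571 times the wild-type level, with an adjusted p of 0.00197 in the edgeR fit. The call held when each of the 6 libraries was left out in turn, at log2 fold changes of -0.86 to -0.72. Alpha-sarcoglycan is made in striated muscle and is the subunit lost in one form of limb-girdle dystrophy. Relative to dystroglycan, Sgca stood at 1.09 ± 0.0489 reads per 100 Dag1 reads in young knockout and at 1.42 ± 0.181 in young wild type (SD, n = 3 each).

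Dag1 had 2454, 1997 and 2168 CPM in young knockout, against 3369, 2743 and 2812 CPM in young wild type. The groups did not overlap, with the highest knockout library below the lowest wild-type one. The log2 fold change was -0.43 ± 0.14 (SE), 0.742 times the wild-type level, with an adjusted p of 0.0412. The direction was the same with each library left out in turn (-0.51 to -0.31), but the call was held only without young knockout replicate 1 and lost without each of the other 5, with adjusted p-values of up to 0.234. Of 12 other alternatives, 4 called Dag1 lower.

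Dmd had 169, 194 and 394 CPM in young knockout, against 102, 86.1 and 115 CPM in young wild type. Replicate 3 of the knockout was far above the other knockout libraries, which still lay above all wild-type libraries. The log2 fold change was 1.32 ± 0.40 (SE), 2.49 times the wild-type level, with an adjusted p of 0.0403. Without young knockout replicate 3 it was 0.88 with an adjusted p of 0.0948. The call was also lost without young knockout replicate 2 or any 1 wild-type library (adjusted p 0.0541 to 0.135), and held without young knockout replicate 1.

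Utrn did not pass the test. It had 702, 515 and 686 CPM in young knockout, against 669, 432 and 532 CPM in young wild type, at a log2 fold change of 0.22 ± 0.17 (SE; adjusted p 0.371). Its 95% interval was -0.14 to 0.58. As a ratio within each library, Dmd had 39.7 ± 16.8 reads per 100 Utrn reads in young knockout and 18.9 ± 3.31 in young wild type (SD, n = 3 each). The lowest knockout ratio was 24.0 and the highest wild-type ratio 21.6, so the groups did not overlap. With 3 libraries against 3, an exact two-sided permutation test cannot go below 0.10, so none was run on this ratio.

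Of the other sarcoglycans, Sgce had 37.1, 43.1 and 45.0 CPM in young knockout, against 58.7, 49.5 and 53.1 CPM in young wild type. Its groups did not overlap, but at a log2 fold change of -0.37 ± 0.13 (SE; adjusted p 0.0587) it missed the threshold. Sgcd had 1.82, 2.18 and 6.21 CPM in young knockout, against 1.26, 1.70 and 1.20 CPM in young wild type, a log2 fold change of 1.23 ± 0.55 (SE) with an adjusted p of 0.125. Its one high library was the same replicate 3 in which Dmd was highest. Sgcb, the beta subunit, had 121, 90.8 and 59.6 CPM in young knockout, against 103, 84.1 and 88.5 CPM in young wild type, at a log2 fold change of -0.01 ± 0.21 (SE) and a 95% interval of -0.46 to 0.43. The cytoplasmic scaffold genes did not pass either: the log2 fold change was -0.16 ± 0.15 (SE) for Sntb1 and 0.19 ± 0.21 (SE) for Dtna.

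**Figure D3:**
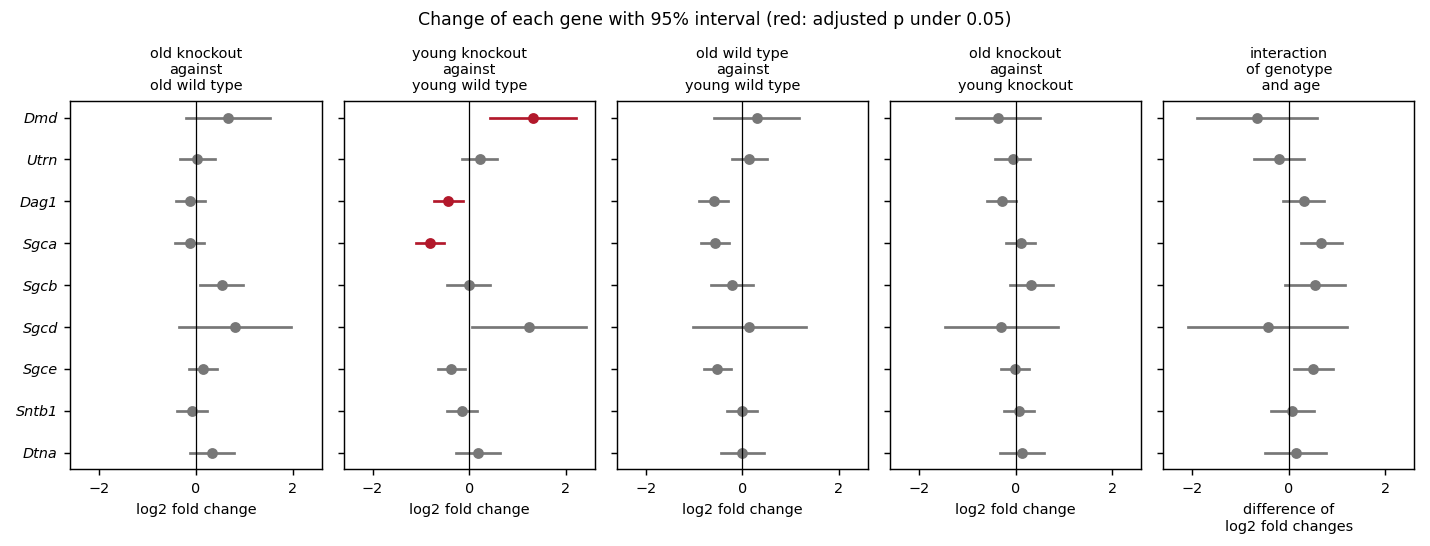
Log2 fold change of each gene with its 95% interval in the 5 comparisons (knockout over wild type, old over young, and for the interaction the knockout effect in old minus that in young); red marks an adjusted p under 0.05 in edgeR. Red appears for Dmd (1.32), Dag1 (-0.43) and Sgca (-0.81) in young knockout against young wild type, and in no other panel.

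GC content moved with these results. Sgca (56.7% GC in its longest transcript) and Dag1 (52.8%) are the most GC-rich of the 9 genes and were lower in young knockout, whereas Dmd (41.5%) was higher, and the libraries of the genotypes differ in their GC trend as given above. With an offset for GC content in each library, the log2 fold changes were -0.43 for Sgca (adjusted p 0.0809), -0.21 for Dag1 (adjusted p 0.377) and 0.91 for Dmd (adjusted p 0.211), so all 3 kept their direction and lost the call in edgeR. Sgce, with 38.4% GC, then stood at -1.02 (adjusted p 0.00518) and was called lower. Offsets for GC content and length gave -0.37 for Sgca, -0.27 for Dag1, 0.64 for Dmd and -1.02 for Sgce (adjusted p 0.00323 for Sgce). Young knockout replicate 3, which had the highest Dmd level, had the weakest GC trend of the knockout libraries (-0.125). Over all genes the GC offsets lowered the count of calls to 954, against 2831 without them.

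**Figure D4:**
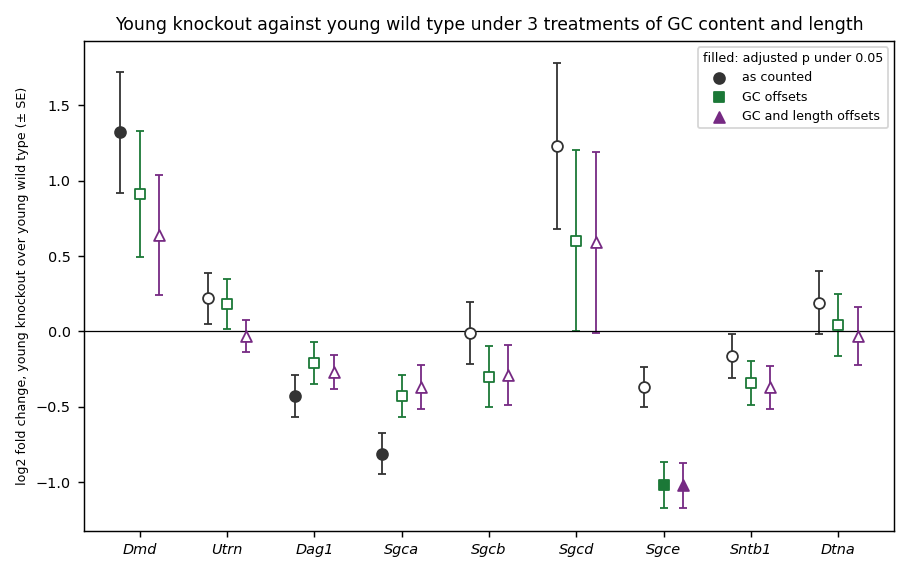
Log2 fold change (± SE) of each gene in young knockout over young wild type as counted, with offsets for GC content, and with offsets for GC content and length; filled symbols have an adjusted p under 0.05. Dmd, Dag1 and Sgca are filled only as counted, at 1.32, -0.43 and -0.81, and Sgce is filled only with offsets, at -1.02.

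Markers of cell types also differed between these libraries, where 20.9% of all genes were called. Of 12 satellite cell markers, 4 were lower in young knockout (Heyl, Pax7, Cdh15 and Itga7) and 0 higher, and their summed level was 6350 to 10399 CPM in young knockout and 8472 to 9733 CPM in young wild type. Of 19 mature myofibre markers 1 was lower (Eno3), with sums of 7057 to 20362 CPM in young knockout and 5419 to 11132 CPM in young wild type. Replicate 3 of young knockout had the highest Dmd level and the lowest myofibre and fibroblast sums of its group. Its sums were the highest of the group for satellite cell, pericyte and smooth muscle, and tendon markers. The same held for endothelial, choroid plexus, and Schwann and neural markers, while its macrophage sum lay between the others. Of 14 pericyte and smooth muscle markers 1 was lower (Notch3), with sums of 4661 to 6341 CPM in young knockout and 6040 to 7019 CPM in young wild type. Choroid plexus markers, foreign to muscle, summed to 20.97 to 43.7 CPM in young knockout and 1595 to 6081 CPM in young wild type, and 8 of 10 were lower. Of 13 fibroblast markers 1 was higher (Dcn) and 2 lower (Cd248 and Col1a1), with sums of 8366 to 8690 CPM in young knockout and 10444 to 12506 CPM in young wild type. Of 10 tendon markers 1 was higher (Angptl7) and 1 lower (Scx), of 12 endothelial markers 1 was lower (Eng), and of 15 macrophage markers 0 passed. The part of these markers in the changes of Sgca, Dag1 and Dmd was not tested. In bulk libraries, fewer cells of a type and less RNA per cell cannot be told apart.

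Old knockout against old wild type gave 0 of the 9 genes past the threshold in edgeR, where 16.7% of all genes passed. An unadjusted p under 0.05 was found for 1 of the 9, against 32.9% of all genes, and 0 were called by DESeq2, which called 20.3% of all genes, or by limma-voom, which called 17%. The count of 2265 calls over all genes fell when libraries were left out. It was 1695, 1630 and 779 without old knockout replicates 1, 2 and 3, and 925, 1049 and 1227 without old wild-type replicates 1, 2 and 3. It was 3 without the 2 libraries with the most reads outside genes (old knockout replicate 3 and old wild-type replicate 2). Each such fit also holds fewer libraries, and the cause of the drop was not tested. The groups did not overlap for 2 of the 9, Sgcb and Dag1, and for 42% of all genes. Sgcb had the one unadjusted p under 0.05, with 96.9, 131 and 113 CPM in old knockout, against 83.9, 69.7 and 82.95 CPM in old wild type. All 3 knockout libraries were above all 3 wild-type libraries. The log2 fold change was 0.53 ± 0.21 (SE), 1.44 times the wild-type level, with an adjusted p of 0.0936 in edgeR. When only these 6 libraries were fitted the adjusted p was 0.0203, in a fit that called 24.3% of all genes. Without old knockout replicates 2 and 3, the male libraries, the log2 fold change was 0.30 with 1 library left in that group. Relative to alpha-sarcoglycan, Sgcb had 449 ± 116 reads per 100 Sgca reads in old knockout and 282 ± 43.2 in old wild type (SD, n = 3 each). In young animals this ratio was 376 ± 111 in knockout and 219 ± 26.6 in wild type. Sgcb has 43.9% GC and Sgca 56.7%, and the part of the GC trends in the ratio was not tested.

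Dmd had 278, 116 and 191 CPM in old knockout, against 86.3, 175 and 110 CPM in old wild type. These groups overlapped, and the log2 fold change of 0.66 ± 0.39 (SE) had an adjusted p of 0.274 and a 95% interval of -0.22 to 1.53. It was 0.33 without old knockout replicate 1 and 0.99 without old wild-type replicate 2. Dag1 had 1792, 1816 and 1829 CPM in old knockout, against 1968, 2044 and 1909 CPM in old wild type. Its groups did not overlap, yet the difference was small, at a log2 fold change of -0.12 ± 0.14 (SE). Sgca had 28.2, 22.9 and 26.1 CPM in old knockout, against 30.9, 28.3 and 25.1 CPM in old wild type, and these groups overlapped. Its log2 fold change was -0.13 ± 0.14 (SE) with a 95% interval of -0.43 to 0.16, and with GC offsets 0.14. The remaining 5 genes had log2 fold changes of -0.08 (Sntb1), 0.02 (Utrn), 0.14 (Sgce), 0.33 (Dtna) and 0.80 (Sgcd), with adjusted p-values of 0.298 or more.

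Beside these values, several marker lists differed between the old groups, where 16.7% of all genes passed. Of 12 satellite cell markers 1 was higher and 2 were lower in old knockout. Their sums were 7280 to 8595 CPM in old knockout and 7655 to 8117 CPM in old wild type. Of 19 mature myofibre and 12 endothelial markers 0 passed. Of 10 tendon markers 6 were higher in old knockout, with sums of 549 to 1627 CPM in old knockout and 332 to 379 CPM in old wild type. Of 14 pericyte and smooth muscle markers 4 were higher, with sums of 5376 to 6016 CPM in old knockout and 5188 to 5386 CPM in old wild type. Of 13 fibroblast markers 3 were higher, with sums of 7425 to 10786 CPM in old knockout and 5892 to 7025 CPM in old wild type. Choroid plexus markers were lower for 9 of 10, with sums of 13.2 to 27.3 CPM in old knockout and 116 to 3501 CPM in old wild type, and macrophage markers for 4 of 15, with sums of 24.6 to 111 CPM in old knockout and 185 to 218 CPM in old wild type. Their part in the levels of the 9 genes was not tested.

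Whether the knockout effect differed with age was tested by the interaction, the knockout effect in old minus that in young. It passed for 0 of the 9 genes in edgeR, where 0.0148% of all genes passed. An unadjusted p under 0.05 was found for 2 of the 9, both sarcoglycans, and for 9.72% of all genes. The difference of log2 fold changes was 0.68 ± 0.19 (SE) for Sgca, with an adjusted p of 0.324, and 0.51 ± 0.19 (SE) for Sgce, with an adjusted p of 0.405. DESeq2 and limma-voom also called 0 of the 9, beside 58 and 1 of all 13540 genes. For Dmd the difference was -0.66 ± 0.56 (SE), with a 95% interval of -1.89 to 0.57, and it was -0.20 without young knockout replicate 3. For Dag1 it was 0.31 ± 0.20 (SE). A call in young and not in old is therefore not shown to be a difference between the ages.

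Old wild type against young wild type asks how age changed the complex in the normal genotype. None of the 9 genes passed in edgeR (0 of 9, where 1.06% of all genes passed), but 3 had an unadjusted p under 0.05, Sgca, Dag1 and Sgce, against 14.2% of all genes. The 144 calls over all genes became 6 to 458 with 1 library left out, lowest without old wild-type replicate 3 and highest without young knockout replicate 3. Sgca, Dag1 and Sgce were lower in each old library than in any young library. DESeq2, limma-voom and a fit of only these 6 libraries each called these 3 genes lower. Over all genes DESeq2 called 3.41%, limma-voom 2.58% and the fit of 6 libraries 6.77%. Sgcb also did not overlap between the ages, by a narrow margin, which makes 4 of the 9, against 26.8% of all genes.

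Dag1 had 1968, 2044 and 1909 CPM in old wild type, against 3369, 2743 and 2812 CPM in young wild type. The log2 fold change was -0.59 ± 0.14 (SE), 0.663 times the young level, with an adjusted p of 0.0602 in edgeR, 0.00042 in DESeq2 and 0.034 in limma-voom. Sgca had 30.9, 28.3 and 25.1 CPM in old wild type, against 41.0, 40.6 and 44.0 CPM in young wild type. Its log2 fold change was -0.57 ± 0.13 (SE), with an adjusted p of 0.0596 in edgeR, 0.0118 in DESeq2 and 0.031 in limma-voom. Sgce had 37.8, 34.1 and 40.2 CPM in old wild type, against 58.7, 49.5 and 53.1 CPM in young wild type. Its log2 fold change was -0.53 ± 0.13 (SE), with an adjusted p of 0.0711 in edgeR, 0.0148 in DESeq2 and 0.0407 in limma-voom. With GC offsets the log2 fold changes were -0.58 for Dag1, -0.52 for Sgca and -0.63 for Sgce.

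The ratio of Sgca to Dag1 was alike at both ages in wild type, at 1.42 ± 0.133 Sgca reads per 100 Dag1 reads in old wild type and 1.42 ± 0.181 in young wild type (SD, n = 3 each). Dystrophin and utrophin did not pass: the log2 fold change was 0.29 ± 0.39 (SE) for Dmd and 0.14 ± 0.17 (SE) for Utrn. Sntb1 and Dtna were both at -0.00, with 95% intervals of -0.31 to 0.30 and -0.45 to 0.45. Beside the lower levels of Dag1, Sgca and Sgce, 3 of 12 satellite cell markers (Heyl, Fgfr4 and Pax7) and 3 of 13 fibroblast markers (Cd248, Col1a1 and Col3a1) were lower in old wild type. In either direction, 1.06% of all genes passed in this comparison. The satellite cell markers summed to 7655 to 8117 CPM in old wild type and 8472 to 9733 CPM in young wild type, without overlap. Other lists also differed in their sums without overlap. Fibroblast markers summed to 5892 to 7025 CPM in old wild type and 10444 to 12506 CPM in young wild type. Schwann and neural markers summed to 894 to 941 CPM in old wild type and 998 to 1144 CPM in young wild type, and 0 of 10 passed. Macrophage markers summed to 185 to 218 CPM in old wild type and 31.4 to 63.6 CPM in young wild type, and 0 of 15 passed. Tendon markers summed to 332 to 379 CPM in old wild type and 686 to 997 CPM in young wild type, and 0 of 10 passed, and pericyte and smooth muscle markers to 5188 to 5386 CPM in old wild type and 6040 to 7019 CPM in young wild type, with 1 of 14 lower (Kcnj8). The part of these markers in the levels of the 3 genes was not tested.

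Old knockout against young knockout gave 0 of the 9 genes past the threshold, 0 with an unadjusted p under 0.05 and 0 in DESeq2 and limma-voom. Over all genes edgeR called 0.0148%, and 9.72% had an unadjusted p under 0.05. DESeq2 called 136 and limma-voom 0 of all 13540 genes. Dag1 came nearest, with 1792, 1816 and 1829 CPM in old knockout, against 2454, 1997 and 2168 CPM in young knockout. Its groups did not overlap, as for 11.6% of all genes, and the log2 fold change was -0.28 ± 0.14 (SE) with an adjusted p of 0.534. For Sgca the log2 fold change was 0.10 ± 0.14 (SE), and for Sgce it was -0.01 ± 0.13 (SE). Their 95% intervals, -0.20 to 0.40 and -0.30 to 0.27, do not reach the -0.57 and -0.53 of the same genes with age in wild type, although the interaction, which tests that difference, did not pass.

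The wider complex was described through 21 further genes found in the files, of which 17 were tested. In both knockout comparisons 2 of the 17 were higher, Sntb2 and Sspn, and 1 was lower, Mark2. Over all genes 16.7% passed in old and 20.9% in young knockout. In the comparisons of ages and in the interaction 0 of the 17 passed. The shares over all genes were 1.06% with age in wild type, and 0.0148% both with age in knockout and in the interaction. Sntb2 encodes beta-2-syntrophin, a relative of Sntb1. It had 276, 198 and 184 CPM in old knockout, against 88.0, 97.4 and 92.3 CPM in old wild type. No old libraries overlapped, and the log2 fold change was 1.25 ± 0.23 (SE) with an adjusted p of 0.00551 in edgeR, still called when each library was left out in turn. In young animals Sntb2 had 126, 219 and 251 CPM in knockout, against 123, 89.0 and 106 CPM in wild type, a log2 fold change of 0.90 ± 0.23 (SE) with an adjusted p of 0.0152. The lowest young knockout library lay just above the highest wild-type one, and without young wild-type replicate 2 the adjusted p was 0.0721.

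Sspn encodes sarcospan, the small membrane protein that binds the sarcoglycans. It had 129, 132 and 132 CPM in old knockout, against 94.0, 74.1 and 94.6 CPM in old wild type, and 134, 134 and 124 CPM in young knockout, against 106, 78.5 and 93.9 CPM in young wild type. Neither pair of groups overlapped, and the log2 fold change was 0.58 ± 0.13 (SE; adjusted p 0.0128) in old and 0.49 ± 0.13 (SE; adjusted p 0.0197) in young animals. Leaving out old knockout replicate 3 or old wild-type replicate 2 ended the old call, and leaving out young knockout replicate 2 or young wild-type replicate 2 or 3 ended the young one. Those adjusted p-values ran up to 0.0616 in old and 0.091 in young animals.

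Mark2 encodes the polarity kinase Par1b, which is known to bind dystrophin in mouse satellite cells. It had 51.1, 53.9 and 41.5 CPM in old knockout, against 84.3, 85.1 and 87.6 CPM in old wild type. In young animals it had 58.2, 37.5 and 58.9 CPM in knockout, against 104, 89.2 and 85.6 CPM in wild type. Each knockout library lay below every wild-type library of its age. The log2 fold changes were -0.80 ± 0.17 (SE, adjusted p 0.00868) in old and -0.85 ± 0.17 (SE, adjusted p 0.0039) in young animals; without old knockout replicate 3 the old adjusted p was 0.0502. Mark2 is GC-rich, at 57.3%. With GC offsets Sntb2 in old animals was the 1 call left in this list: Mark2 stood at -0.52 and -0.47, and Sspn at 0.42 and 0.33, in old and in young animals. With GC and length offsets the list again had 2 higher and 1 lower in old animals, and 0 of either in young ones. Of all 13540 genes, GC offsets called 1049 in old and 954 in young knockout. GC and length offsets called 1374 and 1105.

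Drp2, a further relative of dystrophin known from Schwann cells, had a mean of 68.6 RPKM over the libraries, above Utrn and Dmd per length. It had 521, 314 and 327 CPM in old knockout, against 527, 683 and 492 CPM in old wild type, and these groups overlapped. In young animals it had 427, 441 and 783 CPM in knockout, against 494, 414 and 455 CPM in wild type, and was again highest in the knockout replicate with the most Dmd. It passed in no comparison. Of 10 Schwann and neural markers 1 was higher in old knockout (Cdh19) and 0 in young knockout, where 16.7% and 20.9% of all genes passed. Their sums were 1078 to 1317 CPM in old knockout and 894 to 941 CPM in old wild type. In young animals they were 940 to 1769 CPM in knockout and 998 to 1144 CPM in wild type. Drp2 was named after its values were seen.

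**Figure D5:**
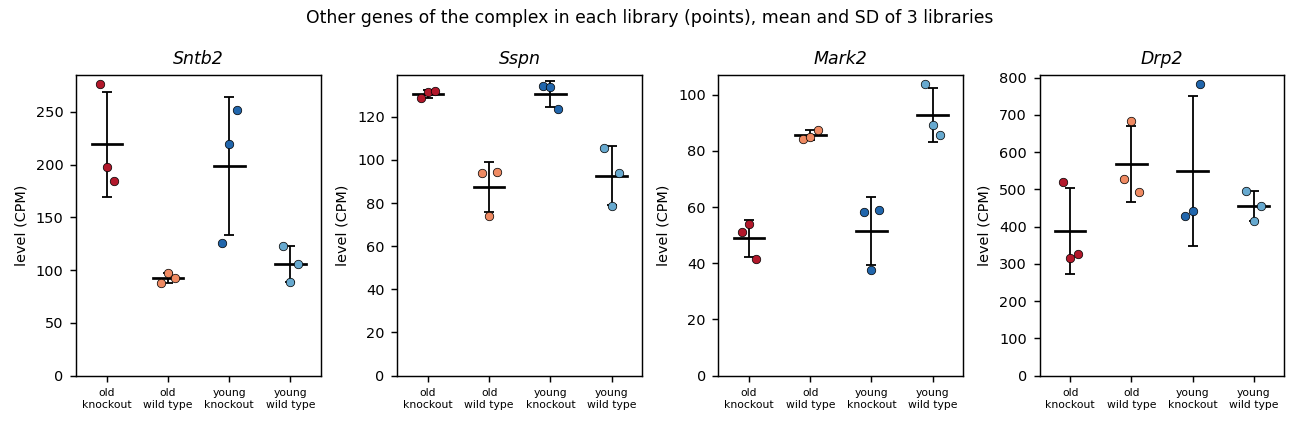
Levels of Sntb2, Sspn, Mark2 and Drp2 in CPM (axes start at 0) in old knockout, old wild type, young knockout and young wild type; points are libraries, bars the mean and whiskers the SD of 3. Sntb2 and Sspn lie above and Mark2 below the wild-type libraries of the same age in every knockout library, while Drp2 overlaps between genotypes.

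Genes of the glycosylation of dystroglycan, which gives it its laminin-binding sugar chains, numbered 18 among those tested. Without offsets, the shares over all genes were 16.7% in old and 20.9% in young knockout. Of all 13540 genes, GC offsets called 1049 in old and 954 in young knockout. GC and length offsets called 1374 and 1105. In old knockout against old wild type 1 was higher, the O-mannosyltransferase gene Pomt2 (log2 fold change 0.44 ± 0.12, SE; adjusted p 0.0302), a call lost when any of the 6 libraries was left out. With GC offsets 2 of the 18 were higher in old knockout, and with GC and length offsets 4. In young knockout against young wild type the genes reported here as past the threshold were B3galnt2, which was higher (0.59 ± 0.15), and Dpm2 (-0.79 ± 0.17), Gmppa (-0.60 ± 0.14) and Pomt1 (-0.60 ± 0.18), which were lower. The calls of Dpm2 and Gmppa held with each library left out in turn, that of B3galnt2 in 4 and that of Pomt1 in 2 of 6 such fits. In young animals 0 of the 18 passed when GC content was offset, and 1 when length was offset too. With age 0 passed in either genotype, where 1.06% of all genes passed in wild type and 0.0148% in knockout.

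Among 15 tested genes for extracellular ligands of dystroglycan, old knockout was higher than old wild type for Egflam, which encodes pikachurin (1.59 ± 0.49), and the laminin chain gene Lama4 (1.40 ± 0.38). It was lower for Nrxn3 (-2.08 ± 0.61), and 16.7% of all genes passed in that comparison. With 1 library left out, Egflam and Lama4 were each called in 1 of 6 fits and Nrxn3 in 2 of 6. With GC offsets the list had 1 higher and 0 lower in old knockout, and with GC and length offsets 2 higher and 1 lower. These fits called 1049 and 1374 of all 13540 genes. Young knockout, where 20.9% of all genes passed, was lower for the small proteoglycan gene Bgn (-1.33 ± 0.28). That call held with each library left out and under all 12 other alternatives. Old wild type was lower than young wild type for the laminin chain gene Lamb1 (-0.97 ± 0.17, SE; adjusted p 0.0197). It was called in 1 of 6 fits with a library left out. With age in wild type 1.06% of all genes passed.

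Genes of integrin adhesion, which forms another link of the muscle membrane to laminin, numbered 13. Of these, 3 were higher and 3 lower in old knockout, and 3 were higher and 4 lower in young knockout. Among all genes 16.7% were called in old and 20.9% in young knockout. In old knockout Itgb1, the common beta1 subunit, was higher (0.70 ± 0.14), as were Lims1 (0.67 ± 0.17) and Fermt2 (0.54 ± 0.15), while the fibronectin receptor subunit Itga5 (-0.81 ± 0.23) and the laminin receptor subunit Itga7 (-0.44 ± 0.14) were lower. With 1 library left out Itgb1 was called in all 6 fits, Lims1 in 3, Fermt2 in 2, Itga5 in 1 and Itga7 in 0. In young knockout the laminin receptor subunit Itga6 (1.32 ± 0.42), Lims1 (0.64 ± 0.17) and Tln2 (0.60 ± 0.17) were higher, and Itga5 (-0.98 ± 0.23) and Zyx (-0.87 ± 0.18) lower. There Zyx was called in all 6 such fits, Itga5 in 5, Lims1 in 4, Tln2 in 3 and Itga6 in 1. With GC offsets the list had 2 higher and 0 lower in old, and 1 higher and 0 lower in young animals. Those offsets called 1049 of all 13540 genes in old and 954 in young knockout.

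Of 15 genes of membrane repair and limb-girdle disease, 2 were higher and 2 lower in each knockout comparison, beside 16.7% of all genes called in old and 20.9% in young knockout. Ahnak, a giant scaffold that binds dysferlin, was higher at both ages (0.97 ± 0.23 in old and 1.0 ± 0.23 in young knockout, SE), as was the annexin gene Anxa1 (0.55 ± 0.15 and 0.52 ± 0.15). Dysf, the dysferlin gene (-0.76 ± 0.21), and Trim72 (-0.94 ± 0.27) were lower in old knockout, and Anxa2 (-0.78 ± 0.20) and Anxa5 (-0.43 ± 0.14) in young knockout. With GC offsets 1 was higher and 0 lower at each age, beside 1049 of all 13540 genes called in old and 954 in young knockout. With 1 library left out Ahnak was called in 4 of 6 fits in old and in all 6 in young animals, Anxa1 in 2 at each age, Dysf and Anxa5 in 0, Trim72 in 1 and Anxa2 in 5.

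Of 23 genes of myogenic determination and differentiation 0 were higher and 6 lower in old knockout, and 0 higher and 4 lower in young knockout. In either direction, 16.7% of all genes passed in old and 20.9% in young knockout. Mef2d, a muscle transcription factor, was lower at both ages (-1.5 ± 0.14 in old and -1.03 ± 0.14 in young knockout), and so was the slow troponin gene Tnnt1 (-1.01 ± 0.21 and -0.86 ± 0.21). Further troponin genes were lower in old knockout, Tnni1 (-1.59 ± 0.30), Tnnc1 (-1.57 ± 0.39) and Tnnt2 (-1.25 ± 0.22). In young knockout Pax7, the satellite cell transcription factor (-0.66 ± 0.14), and Cdh15, a muscle cadherin (-0.61 ± 0.14), were lower. With 1 library left out these calls held in all 6 fits except for Tnnc1, in 2 of 6 in old, and Tnnt1, in 4 of 6 in young animals. With GC offsets 4 of the 23 were lower in old knockout and 2 in young knockout, and with GC and length offsets 5 and 1. In either direction, GC offsets called 1049 of all 13540 genes in old and 954 in young knockout. GC and length offsets called 1374 and 1105. In old wild type against young wild type, where 1.06% of all genes passed, Cdkn1c, a cell cycle inhibitor (-0.92 ± 0.14), and Pax7 (-0.72 ± 0.14) were lower. They were called in 2 and in 0 of 6 fits with a library left out.

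Across the 12 libraries the genes whose log2 levels were most like those of the 9, by Pearson's r among 11811 genes, were listed as a description; the libraries share depth and GC trends. Sgca was most like 1110012J17Rik (0.958), Heyl (0.943) and Vav2 (0.935). Dag1 was most like Fam125b (0.951), 1700025G04Rik (0.949) and Stat2 (0.943). Dmd was most like Ip6k1 (0.975), Lonrf3 (0.966) and Aldh6a1 (0.947), and Utrn most like Vps13d (0.939), Bmpr2 (0.938) and Exoc6b (0.924). Sgcb was nearest to Usp8, Sgcd to Plekha3, Sgce to Col16a1, Sntb1 to Abca7 and Dtna to Klhl31, at 0.90 to 0.939.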

How the data were processed

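Each deposited file holds counts, whole numbers of reads per gene symbol for 1 library, not normalized by the authors. Per the submitters' processing notes TopHat, HTSeq and DESeq2 were used with build mm9; versions and strand setting are not given in the sources used here, so overlapping and antisense genes may share reads. The kit was stranded, per the labels' protocols. Lines naming no gene (32.2% to 70.8% of uniquely aligned reads lay outside genes) stayed out of library sizes and tests. Counts were filtered with filterByExpr, scaled by trimmed means (TMM) and fitted with edgeR 4.0.16 (R 4.3.3; quasi-likelihood, robust, 4 group means over 12 libraries); p-values were Benjamini-Hochberg adjusted over 13540 genes (threshold 0.05). The code was tested on simulated data. Alternatives were DESeq2 1.42.0, limma-voom (limma 3.58.1), other scaling, filters and samples, a replicate block, and lowess offsets for GC content and length (GENCODE M21, another build; 92.3% of symbols matched). Replicate numbers were not taken to pair libraries, as 3 of 18 same-number pairs correlated over 0.1 (r -0.261 to 0.231). With 3 libraries per group, that check cannot exclude a pairing. Within groups no library repeated another. The 9 genes, gene lists and alternatives were chosen with earlier results of these data known. All 9 genes are named in each comparison; of each pathway list, up to 5 genes past the threshold with the largest change are named, and for likeness the 3 genes with the highest r (mean log2 CPM over 1). A gene of the glycosylation list is not reported here.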

Additional observations from a re-analysis of the deposited data

How the results depend on the processing

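Young knockout against young wild type had 3 of the 9 genes past the threshold, beside 2831 of all 13540 genes. It had 1 with library size alone (2143 of all genes), without a filter (2412 of 20738) or with the replicate block (2399). It also had 1 with GC offsets (954) or with GC and length offsets (1105). The other 7 alternatives gave 2 to 4 of the 9, beside 1536 to 3335 of all genes. Leaving out 1 library gave 1 to 3, beside 1479 to 3140. Dag1 was also lost with DESeq2's factors, without Lars2 and with only the groups compared, and Sgce was also called with upper-quartile factors and limma-voom. The replicate block, whose numbers are not known to pair the libraries, lost Dmd (adjusted p 0.0688) and Dag1 (0.0654) in edgeR. It moved no count of the 9 genes elsewhere. Old wild type against young wild type had 0, beside 1.06% of all genes. It had 3 with DESeq2 (3.41% of all genes), limma-voom (2.58%) or only the groups compared (6.77%). With GC and length offsets it had 1 (184 of 13540 genes). Old knockout against old wild type had 0, beside 16.7% of all genes, and 1 with only the groups compared, beside 24.3%. Both other comparisons stayed at 0 under every alternative run. Those fits called at most 136 of all genes in old knockout against young knockout and 116 in the interaction. The cause of these moves was not tested.

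Small changes that passed no test turned their sign, as follows (log2). Old knockout against old wild type: Utrn -0.05 (upper quartile), -0.24 (library size), -0.03 and -0.07 (GC; GC and length), Dag1 0.04 with both offsets, Sgca 0.14 and 0.13 with offsets and 0.01 without the male libraries, Sgce -0.11 (library size), -0.38 and -0.37 (offsets), Sntb1 0.13 without the male libraries. Young knockout against young wild type: Utrn -0.03 and Dtna -0.03 (GC and length), Sgcb 0.03 (DESeq2 and its factors), 0.02 (no filter), 0.00 (without Lars2) and 0.04 (only the groups compared). Old wild type against young wild type: without the libraries with most reads outside genes, Dmd -0.02, Sgcd -0.11, Sntb1 0.07 and Dtna 0.03; Sntb1 0.03 and Dtna 0.03 (upper quartile), 0.08 and 0.09 (library size), 0.00 and 0.01 (strict filter, block), and 0.00 for both with DESeq2. Old knockout against young knockout: without the male libraries Dmd 0.11, Sgcd 0.29 and Sgce 0.05; Utrn 0.10, Sgca -0.03 and Sgce 0.03 (GC and length); Sgcd 0.02 and Sgce 0.01 (limma-voom). Interaction: Sgcd 0.17 and 0.02 without these pairs of libraries, Sntb1 -0.08 and Dtna -0.02 (library size). Leaving out 1 library gave, in old knockout against old wild type, Utrn -0.01 to 0.09 and Sntb1 -0.17 to 0.05; in young knockout against young wild type, Sgcb -0.28 to 0.25; in old against young wild type, Dmd -0.04 to 0.49, Utrn 0.00 to 0.32, Sgcd -0.12 to 0.42, Sntb1 -0.09 to 0.07 and Dtna -0.09 to 0.19; in old against young knockout, Dmd -0.74 to 0.09, Utrn -0.22 to 0.02, Sgcd -0.76 to 0.38, Sgce -0.09 to 0.03, Sntb1 -0.06 to 0.15 and Dtna -0.07 to 0.29; in the interaction, Sgcd -0.91 to 0.23, Sntb1 -0.06 to 0.16 and Dtna -0.07 to 0.29. Depth limits Sgcd most, at 5 to 33 reads per library.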
